A study of Mus musculus with 6 samples.

Results

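Metallothioneins are small, cysteine-rich proteins that bind zinc and copper in the cytosol, and their genes are switched on when free zinc rises. Zinc is sensed by Mtf1, a zinc-finger transcription factor that binds metal response elements in the promoters of Mt1, Mt2 and Slc30a1. Slc30a proteins (ZnT) move zinc out of the cytosol, across the plasma membrane or into organelles, and Slc39a proteins (ZIP) move it in.

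The 9 genes described here are Mt1, Mt2, Mtf1, the zinc exporters Slc30a1, Slc30a4 and Slc30a5, and the zinc importers Slc39a6, Slc39a10 and Slc39a14. They were chosen by symbol with earlier results of the comparison of STC1 with non-targeting shRNA in view. Their values in that comparison are therefore a description and carry no test. All probes annotated to these symbols were taken, and a probe was used where its detection p-value, the chance of such a signal from background beads, was under 0.05 on 2 or more arrays. This gave 13 probes of 45281 on the array, and all 13 met the detection rule, as did 18076 probes in all. The probes nearest the rule were 1 of the 2 Slc39a14 probes, detected on 2 arrays, and 2 of the 3 Mtf1 probes, detected on 3 arrays, and no probe of these genes lay outside it.

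The cells were 4T1ch9, a clone derived from 4T1, a mammary carcinoma line of Balb/c mice. All cells, controls included, had been transduced with a lentivirus and kept in puromycin for 5 to 6 days. Non-targeting (NT) shRNA virus was given at 6 µl on 1 array and at 18 µl on 1 array, and STC1 shRNA virus at 6 µl on 2 arrays and at 18 µl on 2 arrays. Stc1 encodes the secreted glycoprotein stanniocalcin 1. The line is 1 clone, and the labels tell no separate hairpins or cultures apart, so the spread between arrays may be technical.

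Mean raw intensity lay between 228.3 and 310.6 per array, and 16252 to 17507 probes had a detection p-value under 0.05. All levels below are log2 intensities after background correction and quantile normalisation, which gives all arrays 1 shared distribution. The targeted gene Stc1 had a log2 difference of -1.35 (SE 0.14), STC1 arrays minus NT arrays, by its only tested probe. Another Stc1 probe was detected on 0 arrays and was not tested. Of the epithelial markers, the keratin genes Krt8 and Krt18 were detected on all 6 arrays. Cdh1 was detected on 1 NT array and 3 STC1 arrays, and Cldn7 on the STC1 arrays at 6 µl alone. Epcam, Krt19 and Krt14 were detected on none. The leukocyte genes Ptprc, Lyz2 and Itgam, the endothelial genes Pecam1, Cdh5 and Tek, and the fibroblast genes Dcn, Lum, Col1a1 and Col3a1 were also detected on none. Pdgfra, a growth factor receptor typical of fibroblasts, was detected on all 6 arrays by 1 of its 2 probes. Of the fibroblast probes 2 of 11 met the detection rule, and their summed log2 level was 10.25 and 10.04 on the NT arrays and 10.08 to 10.63 on the STC1 arrays. Of the leukocyte probes 1 of 10 met it (summed 7.64 to 7.72), and of the endothelial probes 1 of 8 (7.40 to 7.48). The leukocyte probe, of Cd3e, was detected on the STC1 arrays at 18 µl alone. The endothelial probe, of Kdr, was detected on 1 NT array and 3 STC1 arrays. The part of these markers in the differences below was not tested.

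The sequences before the start sites of Mt2, Mt1 and Slc30a1 are shown because these are the textbook targets of Mtf1, and because each had a higher mean in the STC1 groups than in NT. They come from RefSeq on GRCm38.p6, plus strand, out of the 250 bases upstream of 1 annotated start of each gene. For Mt1 and Slc30a1 the annotated gene begins inside that window, so 30 bases around the match are shown. Capitals mark matches to the metal response element core, searched as TGCACNC and TGCGCNC on both strands.
Mt2, chr8:94172368-94172617: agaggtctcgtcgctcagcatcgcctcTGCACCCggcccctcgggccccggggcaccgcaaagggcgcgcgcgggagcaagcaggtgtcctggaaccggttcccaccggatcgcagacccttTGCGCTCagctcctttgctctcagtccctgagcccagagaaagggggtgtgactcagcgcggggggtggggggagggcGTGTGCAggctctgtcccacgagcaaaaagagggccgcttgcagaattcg
Mt1, chr8:94179055-94179084: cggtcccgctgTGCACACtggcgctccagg
Slc30a1, chr1:191906727-191906756: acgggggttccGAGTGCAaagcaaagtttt
The Mt2 window held 3 matches, whose first bases lay at -223, -128 and -50 from the start. The Mt1 window held 1, at -23, and the Slc30a1 window held 1, at -43. The annotated gene begins at 94178883 for Mt1 and at 191906697 for Slc30a1, so both matches lie inside it. These windows hold only part of the sequence before the gene, so their counts are not set against that of Mt2. Of 32851 mouse windows of the same length, 21.4% held at least 1 such match and 1.26% held at least 3. The antioxidant response element core, searched as TGACNNNGC on both strands, matched once in the Mt2 window and once in the Slc30a1 window, and 10.2% of all windows held it. No match of this core overlapped a metal response element match. Windows were found for 7 of the 9 genes, and Slc39a6 and Slc39a14 had none. Slc30a4 held 2 metal response element matches, Slc30a5 held 1, and Mtf1 and both windows of Slc39a10 held 0. A match is a run of letters in this window and says nothing of binding. Mt1 and Mt2 are adjacent genes on chromosome 8, and Mt3 is the next protein-coding gene.

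**Figure D1:**
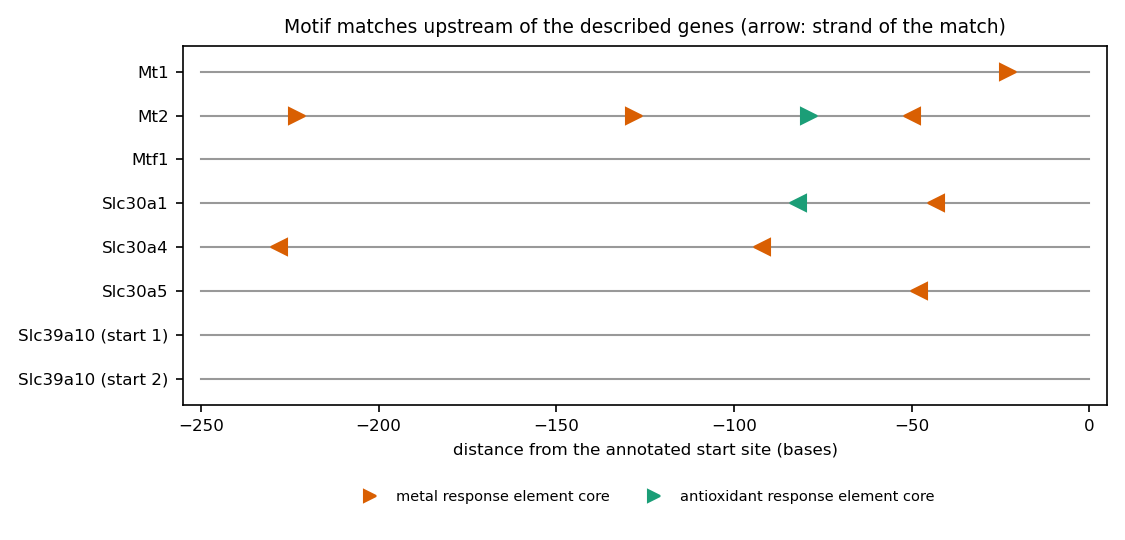
Matches to the metal response element core and the antioxidant response element core in the 250 bases before the start sites of 7 genes (2 starts for Slc39a10), plotted by distance from the start in bases. Arrows point along the strand of the match, and the Mt2 window holds 3 metal response element matches. For Mt1, Slc30a1, Slc30a5 and start 2 of Slc39a10 the annotated gene reaches into the window, so their counts are not set against that of Mt2.

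Mt2, one of the 2 widely expressed mouse metallothioneins, showed the largest difference of the 13 probes. Its log2 intensity was 6.66 on the NT array given 6 µl and 7.19 on the NT array given 18 µl. On the STC1 arrays it was 8.07 and 7.93 at 6 µl and 7.68 and 8.17 at 18 µl. All 4 STC1 arrays lay above both NT arrays, and the gap between the groups was 0.50. The mean was 7.96 ± 0.21 (SD, n = 4) against 6.92 (n = 2), a log2 difference of 1.04 (SE 0.18), or 2.05-fold. Of tested probes 0.758% had a difference as large in either direction. This is a rank in the comparison on which the genes were chosen, so nothing is read from it. The NT arrays stood 0.53 apart for Mt2, a distance reached by 4.5% of tested probes. The difference was 0.78 without NT replicate 1, the array given 6 µl, and 1.30 without NT replicate 2. In bulk RNA, more cells expressing a gene and more RNA per cell cannot be told apart.

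Mt1, the other widely expressed metallothionein, was also above NT on all 4 STC1 arrays, by a much smaller distance on this scale. It was at 14.20 and 14.23 on the NT arrays, at 14.55 and 14.42 with STC1 virus at 6 µl, and at 14.44 and 14.38 at 18 µl. The log2 difference was 0.23 (SE 0.11), or 1.17-fold, and the gap between the groups was 0.15. The Mt1 probe lay near the top of the range of every array. On the NT arrays its raw intensity was 78.7% and 80.2% of the highest on the array, with 23 and 21 brighter probes. On the STC1 arrays it was between 88.5% and 100% of the highest, with 0 to 7 brighter probes, and on STC1 6 µl replicate 1 it was the brightest probe of all. Divided by the mean raw intensity of its array, Mt1 stood at 73 and 75.8 on the NT arrays, at 89.6 and 87 with STC1 virus at 6 µl, and at 85.9 and 77.1 at 18 µl. The part of this closeness to the top of the range in the size of the Mt1 difference was not tested. The bead sequences were not used here, so cross-reading between these close paralogs was not tested either. Over the 6 arrays Pearson's r between the 2 probes was 0.851, a description of arrays that share the same group structure.

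Mtf1, the zinc sensor itself, was at similar levels with both viruses. Its brightest probe was at 7.78 and 7.95 on the NT arrays, at 7.65 and 7.87 with STC1 virus at 6 µl, and at 8.02 and 7.71 at 18 µl. The groups overlapped, and the log2 difference was -0.05 (SE 0.14). The other 2 probes were near background, between 4.38 and 4.94 on all arrays, with differences of -0.03 (SE 0.16) and 0.04 (SE 0.15). Both were detected on the NT array given 18 µl and on both STC1 arrays at 6 µl, and not on the other 3 arrays. Their Pearson's r over the 6 arrays was 0.955, and the sign of their differences depended on which NT array was left out (-0.30 and -0.21 without replicate 1, 0.25 and 0.29 without replicate 2).

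**Figure D2:**
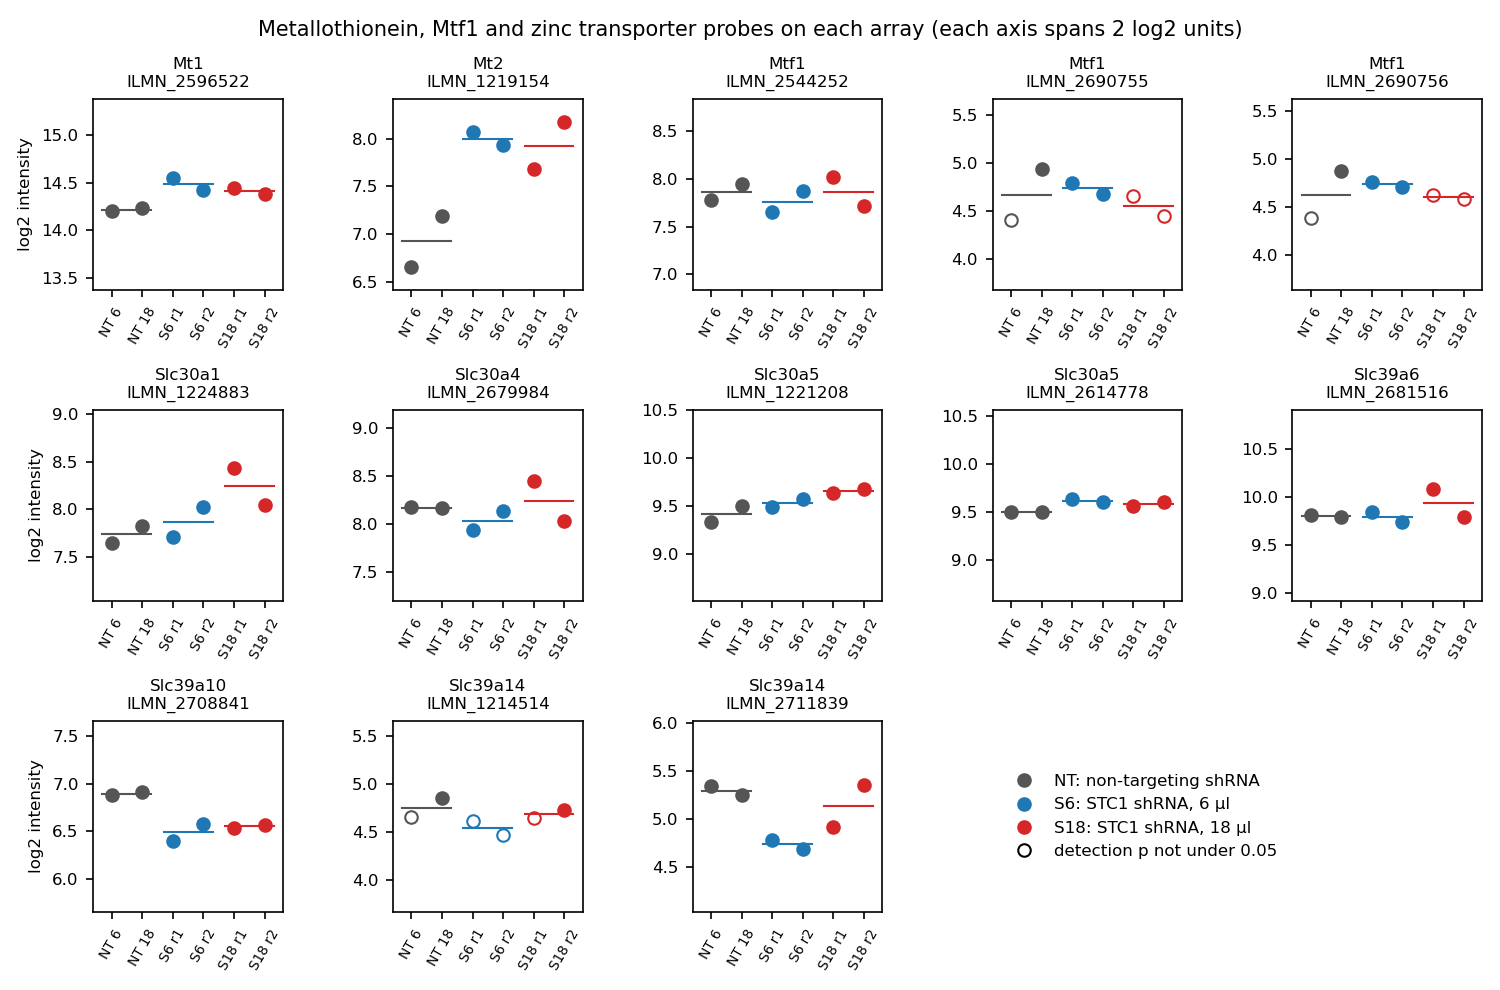
Normalised log2 intensity of the 13 probes on each of the 6 arrays, with NT arrays in grey, STC1 arrays at 6 µl in blue and at 18 µl in red, and lines at the group means. Each vertical axis spans 2 log2 units, open points have a detection p-value of at least 0.05, and the Mt2 panel shows the NT arrays at 6.66 and 7.19 below all 4 STC1 arrays.

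Slc30a1 carries zinc across the plasma membrane and is itself an Mtf1 target. It was at 7.65 and 7.83 on the NT arrays, at 7.71 and 8.02 with STC1 virus at 6 µl, and at 8.43 and 8.05 at 18 µl. The lower STC1 array at 6 µl fell between the NT arrays, so the groups overlapped, and both arrays at 18 µl were above them. The log2 difference was 0.32 (SE 0.15), or 1.25-fold, and it was 0.13 for the 6 µl arrays and 0.50 for the 18 µl arrays against the same 2 NT arrays. Slc30a5, which loads zinc into the early secretory pathway, was read by 2 probes with differences of 0.18 (SE 0.11) and 0.10 (SE 0.11). The first was 0.10 without NT replicate 1, and median scaling gave 0.40 and 0.31, or 0.25 and 0.16 relative to the shift of 0.149 that it gave to the median of all tested probes. The second of these probes was at 9.50 on both NT arrays and between 9.56 and 9.63 on the STC1 arrays, a gap of 0.06 between the groups. Slc30a4, a transporter of endosomes and vesicles that supplies zinc to mouse milk, ranged from 7.93 to 8.45 over the STC1 arrays and was at 8.17 and 8.16 on the NT arrays. Its difference was -0.03 (SE 0.14), and the STC1 arrays lay on both sides of NT.

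Among the importers, Slc39a10 was lower on all STC1 arrays. Slc39a10 is a plasma membrane importer that is held down by Mtf1 in mouse cells. Its level was 6.88 and 6.91 on the NT arrays, 6.40 and 6.58 with STC1 virus at 6 µl, and 6.54 and 6.57 at 18 µl. The gap between the groups was 0.30, against 0.03 between the NT arrays, and the difference was -0.37 (SE 0.11), or 1.30-fold lower. Slc39a14, an importer of zinc and iron that is induced by interleukin-6 in mouse liver, was low on these arrays. The brighter of its 2 probes was at 5.34 and 5.25 on the NT arrays, at 4.78 and 4.69 with STC1 virus at 6 µl, and at 4.92 and 5.36 at 18 µl. The last of these, STC1 18 µl replicate 2, was above both NT arrays, and the other 3 STC1 arrays were below them. The difference was -0.36 (SE 0.14). Leaving out 1 array at a time gave values from -0.47, without that array, to -0.26, without STC1 18 µl replicate 1. With the authors' deposited values, or with no background correction, it was -0.18. The other Slc39a14 probe was between 4.47 and 4.85 on all arrays, with a difference of -0.14 (SE 0.12). Slc39a6, an importer that in human breast cancer tracks with oestrogen receptor status, was between 9.74 and 10.08 on all arrays, and its difference was 0.06 (SE 0.12).

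Across the 13 probes 7 differences were above 0 and 6 below, with a median of 0.04 against 0.014 over all 18076 tested probes. Groups did not overlap for 4 probes, Mt1, Mt2 and 1 Slc30a5 probe above NT and Slc39a10 below, which is 30.8% of the 13. Of all tested probes 35.4% did not overlap, 18.9% above NT and 16.5% below. At an adjusted p under 0.05 (limma, Benjamini-Hochberg over all tested probes) 1 of the 13 probes, Mt2, was called, which is 7.69% where 7.78% of all tested probes were called, 3.81% higher and 3.98% lower. The genes were chosen on this comparison, so this count is no test of Mt2 and nothing is read from it. Mt2 was not called without NT replicate 1 (0.78), without STC1 6 µl replicate 2 (1.07) and without the filter on dim probes (1.04). When arrays were scaled to 1 median only, Slc30a1 was at 0.48, or 0.34 relative to the same shift. With that scaling 3 differences below 0 were above it, the Mtf1 probes of -0.05 and -0.03 at 0.12 and 0.02, and Slc30a4 at 0.14. Relative to the shift they were -0.03, -0.13 and -0.01.

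**Figure D3:**
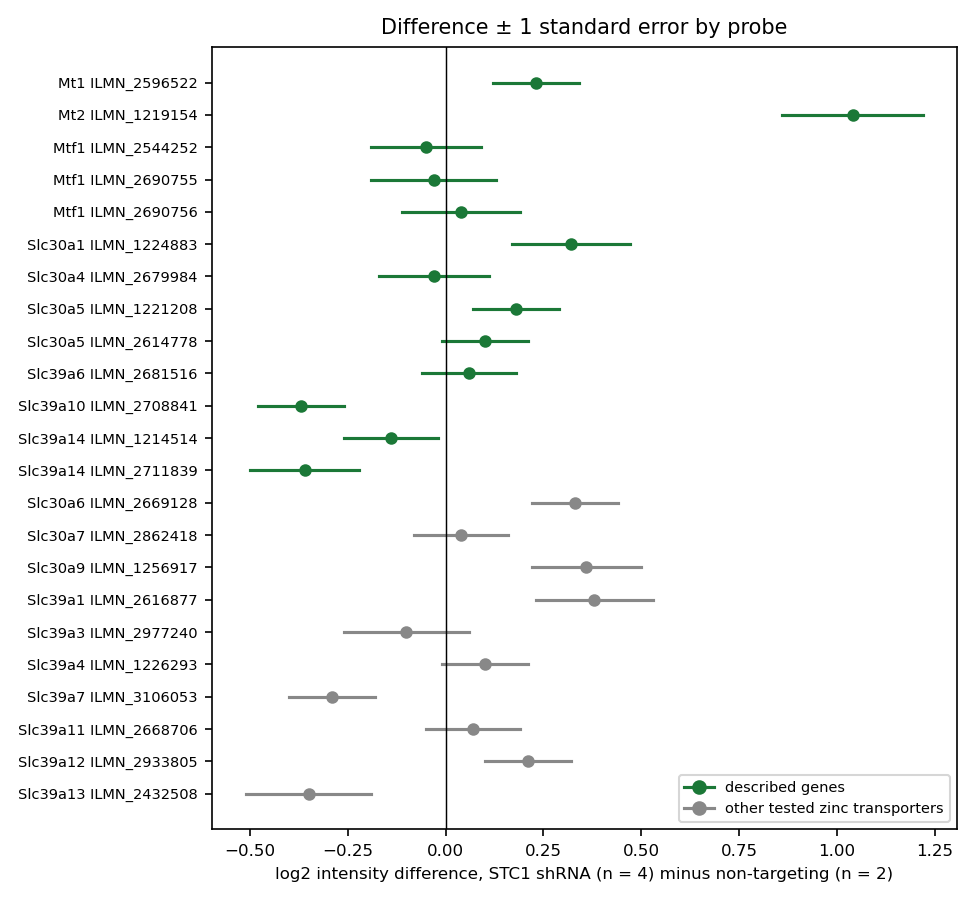
Log2 intensity difference, STC1 arrays (n = 4) minus NT arrays (n = 2), with bars of 1 standard error, for the 13 described probes in green and 1 probe for each of 10 other zinc transporters in grey. Mt2 at 1.04 stands apart from the others, which lie between -0.37 and 0.38.

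Virus volume was not part of the choice of these genes, so the difference between 18 and 6 µl of STC1 virus was tested. Neither metallothionein passed. The difference was -0.07 for Mt2 (95% interval -0.55 to 0.42, limma adjusted p = 0.964) and -0.07 for Mt1 (-0.36 to 0.21, adjusted p = 0.936). Slc30a1 was 0.37 higher at 18 µl (interval -0.03 to 0.77, adjusted p = 0.723) and did not pass. The brighter Slc39a14 probe was 0.41 higher (interval 0.04 to 0.78, adjusted p = 0.69), which did not pass. With limma 0 of the 13 probes passed, and 1 had an unadjusted p under 0.05. Of all tested probes 0% passed, and 1230 had an unadjusted p under 0.05.

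The STC1 difference was next compared between volumes, each taken against the NT array of its own volume. For Mt2 it was 1.33 at 6 µl and 0.74 at 18 µl, a difference between volumes of -0.59 (interval -1.32 to 0.13, limma adjusted p = 1). For Mt1 it was 0.28 and 0.18, and for Slc39a10 it was -0.39 and -0.35. Of the 13 probes 0 passed this test and 2 had an unadjusted p under 0.05, both of them dim Mtf1 probes. Over all tested probes 0% passed and 773 had an unadjusted p under 0.05. With 1 NT array at each volume, the NT spread at a volume was not measured, and the intervals rest on the STC1 pairs.

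**Figure D4:**
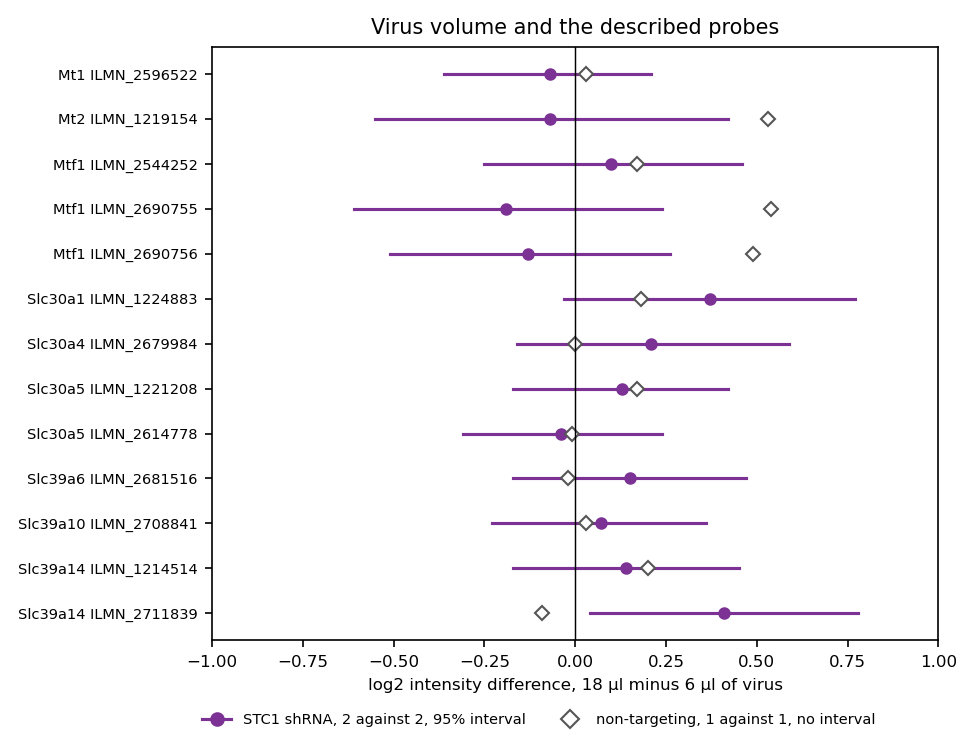
Log2 intensity difference between 18 and 6 µl of virus for the 13 probes, with circles and 95% intervals for STC1 virus (2 arrays against 2) and open diamonds for NT virus (1 against 1, no interval). The diamonds of Mt2 and of 2 Mtf1 probes, between 0.49 and 0.54, and that of the brighter Slc39a14 probe, at -0.09, lie beyond the interval of the STC1 difference. The spread of the diamonds was not measured, and 0 of the 13 probes passed the test of the STC1 difference between volumes.

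The rest of both transporter families was examined with the same comparison of STC1 and NT, over 19 further genes. Mt3, the metallothionein best known from brain, and Mt4, that of stratified epithelia, did not meet the detection rule, so Mt1 and Mt2 were the only metallothioneins tested. Of 8 other zinc exporters 3 were tested, and of 11 other zinc importers 7 were tested. With limma 0 of these 10 genes passed in either direction, where 8.17% of all 9754 tested genes did (4.45% higher and 3.72% lower), and 4 of the 10 had an unadjusted p under 0.05, against 26.5% of all genes. The exporters were Slc30a6, a partner of Slc30a5 in the secretory pathway (0.33, SE 0.11, adjusted p = 0.101), Slc30a9 (0.36, adjusted p = 0.149) and the Golgi transporter Slc30a7 (0.04, adjusted p = 0.871). Slc30a6 was at 8.44 and 8.36 on the NT arrays and between 8.65 and 8.80 on the STC1 arrays. It passed with no background correction (adjusted p = 0.0439), with the authors' deposited values (0.0442) and with median scaling (0.0318), and in none of the other 12 settings tried. Of the importers, Slc39a1 was at 0.38 (adjusted p = 0.145), Slc39a13 at -0.35 (adjusted p = 0.205) and Slc39a12, not above background on either NT array, at 0.21 (adjusted p = 0.286). Slc39a7, which releases zinc from the endoplasmic reticulum, was at -0.29 by its brightest probe (adjusted p = 0.143), while its other 2 probes were at -0.37 and 0.33. Probes of 1 gene thus disagreed in sign. The median difference was 0.33 for the 3 exporters and 0.07 for the 7 importers, beside 0.03 over all tested genes.

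Further genes that Mtf1 is reported to control in mouse were examined as a list of 5. The list leaves out Slc39a10, described above, and Slc40a1, which is given with the iron genes below and passed higher. None of the 5, Csrp1 (0.07), Ndrg1 (-0.01), Selenow (0.15), Pgf (0.23) and Gclc (-0.07), passed, and none had an unadjusted p under 0.05 (limma adjusted p from 0.423 to 0.983). None of 13 tested copper genes passed by the probe standing for the gene, and the smallest p-values were those of the copper importer Slc31a1 (-0.21, adjusted p = 0.27), Cox17 (0.21), Steap2 (-0.14) and the copper exporter Atp7a (-0.18). A second probe of Cp, which encodes the copper-carrying ferroxidase ceruloplasmin, passed at 0.83 (adjusted p = 0.031), whereas its brightest probe was at 0.18. Among these copper genes 0 had an unadjusted p under 0.05 by the probe standing for the gene.

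Of 14 tested iron genes 1 passed higher and 1 lower, where 4.45% and 3.72% of all tested genes did. Slc40a1, the iron exporter ferroportin, which in mouse cells is also reported as an Mtf1 target, was not above background on either NT array (4.36 and 4.28). It was at 5.05 and 5.08 with STC1 virus at 6 µl and at 5.12 and 6.07 at 18 µl, at least 1.49-fold higher (limma adjusted p = 0.0328). It met the detection rule through the STC1 arrays alone, so its pass was partly fixed by that rule. The call was lost without NT replicate 1 (adjusted p = 0.141) or 2 (0.139), without STC1 6 µl replicate 1 (0.0743) or 2 (0.0994) and when dim probes were kept in (0.109). The fitted log2 difference of 1.01 was 0.63 with no background correction. Hmox1, which degrades haem and releases its iron, fell by 0.77 on the log2 scale (SE 0.18, adjusted p = 0.0404). That call was lost without NT replicate 1 (-0.47, adjusted p = 0.251), without any 1 of the 4 STC1 arrays (adjusted p from 0.0632 to 0.121) and with no filter on dim probes (0.116). With the authors' deposited values, or with no background correction, Hmox1 was at -0.42 and passed. Aco1 (-0.44, adjusted p = 0.139) and Ncoa4 (-0.33, adjusted p = 0.194) did not pass. Probes of 1 gene disagreed here too. A second Ncoa4 probe, detected on all arrays, was at 0.15, and another, called lower, was above background on 1 of 4 STC1 arrays. For the divalent metal importer Slc11a2 a second probe was called lower (-0.80), and the brightest probe was at 0.17.

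Metallothionein genes also respond to glucocorticoids and to oxidants, so both responses were listed. None of 10 tested genes of the glucocorticoid response passed with limma, and 3 had an unadjusted p under 0.05, against 26.5% of all tested genes. The 3 were the kinase gene Sgk1 (0.38, adjusted p = 0.0842), Tsc22d3, encoding the leucine zipper protein GILZ (0.40, adjusted p = 0.0992), and the phosphatase gene Dusp1 (-0.31, adjusted p = 0.134). Sgk1 and Tsc22d3 were higher on 4 of 4 STC1 arrays, with gaps between the groups of 0.27 and 0.02, as were Zbtb16 and Errfi1. Dusp1 and Per1 were lower on 4 of 4. Of all tested probes 18.9% lay above NT in this way and 16.5% below. A second Tsc22d3 probe, detected on 2 arrays, was at -0.19. Sgk1 and Tsc22d3 passed with no background correction, with the authors' deposited values and with median scaling (limma adjusted p from 0.0185 to 0.0462). Neither passed in the other 12 settings. Zbtb16, not above background on either NT array, was at 0.24 (adjusted p = 0.229). The oxidant list leaves out Hmox1, given with the iron genes above and called lower, and Gclc, given with the Mtf1 genes above. Of 9 tested oxidant-response genes under the factor Nrf2, 0 rose and 1 fell, where 4.45% and 3.72% of all tested genes did. This was Slc7a11, the cystine importer, at -1.35 (SE 0.13, adjusted p = 0.0016), called lower in all 15 other settings. Prdx1 (-0.23), Srxn1 (0.23) and Nfe2l2 (-0.21), which encodes Nrf2, did not pass.

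The genes whose pattern over the 6 arrays was most like that of each metallothionein were found by Pearson's r among 2155 probes with an SD of at least 0.3, as a description. For Mt1 they were Cwf19l2 (0.9908), Ahi1 (0.9657), Add3 (0.9594), Ankrd10 (0.9574) and Zbtb20 (0.957). For Mt2 they were H2bc21 (0.999), Limch1 (0.9963), Syn1 (0.9952), Rida (0.9934) and Cpt2 (0.9908). All genes named were higher with STC1 virus, by 0.54 to 0.93, so these r values describe arrays that share the same group structure. The 2 sets shared no gene, and nothing is read from this for sets of 5.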

How the data were processed

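RNA of 6 samples was measured on Illumina bead arrays. The authors deposited linear bead intensities, not normalised per the file headers, and beside each intensity stands a deposited detection p-value. A second table by the authors, deposited as log2 values without a stated method, matched quantile-normalised log2 raw intensities (median absolute difference 0.000154 or less). The scanner software and the genome build are not given in the sources used here.

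Here the intensities went through the neqc function (limma 3.58.1, R 4.3.3), which took the background from negative controls inferred from detection p-values, added 16, quantile-normalised and took log2, so small values are drawn together and folds of dim probes understated. Probes detected (p-value under 0.05) on 2 or more arrays were tested with lmFit and eBayes, 1 mean per group, two-sided, with Benjamini-Hochberg adjustment over 18076 probes. The spread had 3 residual and 5.66 prior degrees of freedom. A model of 4 virus and volume means gave the difference between volumes. Changed means an adjusted p under 0.05. Gene symbols were those of the platform annotation, brought up to date by gene identifier (34807 matched). The brightest tested probe stood for a gene. On simulated data over 18076 probes for STC1 against NT, 34% of probes changed by 0.5 and 100% of those changed by 1 (log2) were recovered. Of the probes given no change, 12 were called. The simulated noise was independent between arrays and had the fitted spread of each probe, so recovery in the real data may be lower.

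Members, lists and rules were chosen with earlier results of these data known. All member probes were named, and of each list the genes that passed and up to 4 others with the smallest p, and the 5 genes most like Mt1 and Mt2. Names of a second probe with another call, and of markers, were added after their values were seen. Alternatives were no background correction, the deposited log2 values, median scaling, other filters on dim probes, each array left out, replicate number or volume as a block, and 2 groups only.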

Additional observations from a re-analysis of the deposited data

Results flagged for a closer look

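Of the 13 described probes and the genes named from the lists by rule, 5 probes had both STC1 arrays on one side of the NT array of their volume at 6 µl and both on the other side at 18 µl. Over all 113 tested probes of the described and listed genes, markers included, 21 did so (18.6%), as did 12.5% of all tested probes. The 5 are 2 dim Mtf1 probes, with a difference between volumes of -0.73 (0.34 at 6 µl and -0.39 at 18 µl) and -0.62 (0.35 and -0.27), Slc30a7 at -0.35, Csrp1 at 0.37 and Atp7a at 0.65. In the limma test of this difference the unadjusted p-values were 0.019 and 0.0292 for Mtf1, 0.17 for Slc30a7, 0.171 for Csrp1 and 0.0243 for Atp7a, and the adjusted p was 1 for each. The third Mtf1 probe, the only one detected on all 6 arrays, was at -0.06 (interval -0.71 to 0.58). Each volume has 1 NT array, so a difference in volume and a difference in that array cannot be told apart. Groups of 2 arrays are too small for a check of single outlying arrays.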

How the results depend on the processing

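The filters on dim probes, the blocks by replicate number or volume, and the use of 2 groups only cannot change a probe's difference in this design. They therefore say nothing of its sign. In the other alternatives Mt1, Mt2, Slc30a1, both Slc30a5 probes, Slc39a10 and both Slc39a14 probes kept the sign of their difference. Mt2 lay between 0.78 and 1.30 and Mt1 between 0.20 and 0.34. The deposited values gave nearly the same differences as no background correction, so they are not a separate check. Over all tested probes 1407 passed for STC1 against NT. The count was 2288 with no background correction and with the authors' deposited values, 2528 with median scaling (80.8% of them higher, against 48.9%) and 787 without the filter, where more probes were tested. Leaving out 1 array gave 155 to 1434. For 18 against 6 µl of STC1 virus the count of 0 became 121 with median scaling and 0 to 1 without 1 array. For the difference between volumes it became 2 with median scaling and 0 to 1 without 1 STC1 array. That difference has no value without an NT array. The causes were not tested. Deviations of same-numbered arrays correlated at -0.02 (NT with STC1 6 µl), -0.11 (NT with STC1 18 µl) and 0.00 (STC1 6 µl with 18 µl). The last shows no pairing of the STC1 arrays by number. The NT arrays also differ in volume, so the values with NT cannot decide whether numbers pair those arrays. With the replicate block 1295 probes passed, and 0 for the volumes, and no call on the described probes changed. With crossed numbers for the 18 µl arrays, tried after seeing the data, 1321 passed. Of the 13 probes, 2 Mtf1 probes and 1 Slc39a14 probe were above background on 3 or fewer arrays.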
